A study of Mus musculus with 36 samples.

Results

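The genes described here are 40 members of the homologous recombination, Fanconi, mismatch repair and DNA damage checkpoint pathways, taken by symbol from the 21955 rows of each count table. RNA came from regenerating livers of C57BL/6JN mice, an inbred laboratory strain, that were young (4 months) or old (18 months). The submitters call the old mice the treated group. Livers were sampled before and at time points labelled 48, 72, 96, 120 and 240. The labels give these numbers no unit, and how regeneration was started is not given in the sources used here. There were 3 biological replicates at each of 6 time points in both ages, 12 groups in all, which made 36 libraries of total RNA depleted of ribosomal RNA. The labels name no transgene, drug or other treatment in any group.

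Homologous recombination mends a broken chromosome by copying the sister chromatid: the ends are trimmed, Brca1, Brca2 and their partners prepare the single strand to pair with the intact copy, and the crossed strands are untangled or cut. Fanconi proteins unhook crosslinks and shelter stalled replication forks, mismatch repair removes copying errors, and the kinases Atm, Atr, Chek1 and Chek2 hold the cell cycle while damage is present. Many of these genes are known targets of E2F factors, transcribed as cells enter DNA replication, and hepatocytes, which rarely divide in the adult, re-enter the cell cycle in a regenerating liver.

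Promoters are shown first, because 32 of the 40 members rose in young livers at 48 and because E2F sites are known in this class of genes. RefSeq windows of 300 bases (GRCm38.p6), from 250 bases before the start of the gene to 50 bases after it, matched 31 of the 40 members by symbol. Nbn, Tonsl, Fancd2, Rmi2, Pif1, Exo1, Rad50, Rad54b and Xrcc2 had no entry. The 5 printed here run 5′ to 3′ on the gene's own strand, in lower case with motif matches in capitals. They are 3 members with an E2F match, then Parpbp, which had the highest fold change, and Atm, which was not called in young livers at 48.
Bard1, chr1:71102923-71103222, minus strand: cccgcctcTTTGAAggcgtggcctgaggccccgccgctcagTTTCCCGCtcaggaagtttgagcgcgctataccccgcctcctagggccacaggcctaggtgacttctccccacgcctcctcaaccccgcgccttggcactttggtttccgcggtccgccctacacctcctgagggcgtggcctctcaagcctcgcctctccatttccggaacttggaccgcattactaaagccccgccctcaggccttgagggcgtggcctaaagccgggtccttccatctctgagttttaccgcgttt
Topbp1, chr9:103305077-103305376, plus strand: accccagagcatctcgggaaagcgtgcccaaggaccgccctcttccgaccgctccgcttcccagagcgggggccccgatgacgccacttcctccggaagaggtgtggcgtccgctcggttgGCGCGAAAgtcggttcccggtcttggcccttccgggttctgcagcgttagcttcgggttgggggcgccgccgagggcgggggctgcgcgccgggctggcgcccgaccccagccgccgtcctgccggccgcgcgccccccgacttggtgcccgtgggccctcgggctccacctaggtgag
Msh6, chr17:87974800-87975099, plus strand: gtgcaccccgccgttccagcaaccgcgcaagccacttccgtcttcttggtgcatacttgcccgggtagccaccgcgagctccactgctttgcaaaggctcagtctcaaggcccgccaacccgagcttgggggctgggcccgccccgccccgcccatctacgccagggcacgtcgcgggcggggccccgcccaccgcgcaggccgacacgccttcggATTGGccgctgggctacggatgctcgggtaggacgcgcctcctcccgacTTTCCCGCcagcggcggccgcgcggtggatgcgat
Parpbp, chr10:88146892-88147191, minus strand: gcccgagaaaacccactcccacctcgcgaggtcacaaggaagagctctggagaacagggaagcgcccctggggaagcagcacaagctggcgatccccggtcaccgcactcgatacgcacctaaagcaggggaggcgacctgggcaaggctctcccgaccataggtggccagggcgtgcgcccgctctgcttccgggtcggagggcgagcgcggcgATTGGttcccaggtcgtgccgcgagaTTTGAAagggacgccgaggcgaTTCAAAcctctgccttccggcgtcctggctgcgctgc
Atm, chr9:53536622-53536921, minus strand: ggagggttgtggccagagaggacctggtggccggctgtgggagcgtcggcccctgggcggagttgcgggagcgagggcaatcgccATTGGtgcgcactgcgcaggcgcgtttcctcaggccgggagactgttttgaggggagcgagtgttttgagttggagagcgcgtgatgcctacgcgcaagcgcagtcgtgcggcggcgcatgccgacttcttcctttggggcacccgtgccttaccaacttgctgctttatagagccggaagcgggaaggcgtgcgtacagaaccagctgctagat
Capitals mark matches on either strand to the E2F site (TTTGGCGC, TTTCCCGC, TTTGCCGC or TTTCGCGC), the CCAAT box (CCAAT, or ATTGG read on the other strand) and the CHR element of late cell cycle genes (TTTGAA, or TTCAAA on the other strand). Matches of different motifs can share bases at their ends. Members and tested genes were counted by gene, with a match in any of a gene's windows, and all promoters were counted by window. An E2F match was present in 7 of the 31 members (22.6%), namely Brca2, Bard1, Rad51c, Fancg, Chek2, Topbp1 and Msh6. The same letters were in 4.45% of tested genes with an entry and in 2.26% of all 32851 promoter windows. In Bard1 the E2F match begins 209 bases before the start, in Topbp1 129 bases before it, and in Msh6 15 bases after it. A CCAAT box was present in 19 of the 31 (61.3%), against 42.7% of tested genes with an entry and 37.4% of all promoter windows. A CHR element was present in 4 of the 31 (12.9%), against 14.8% and 17.9%. The Parpbp window holds a CCAAT box that begins 35 bases before the start and CHR matches that begin 9 bases before and 13 bases after it. The Atm window holds a CCAAT box and neither of the other motifs. A match is a description of the letters, not a tested site.

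Levels below are CPM, the usual depth-scaled count, here over the tested genes of a library with the TMM method. Library totals ran from 2328233 to 6034446 counts. Calls need an adjusted p under 0.05 in edgeR's quasi-likelihood test, with Benjamini-Hochberg adjustment over all 13436 tested genes, and all 40 members were among them. All adjusted p-values below come from that test, and errors of log2 values are standard errors. The libraries stood apart in several ways that the labels do not give. In 12 libraries, 1 in each group, the Y-linked transcripts summed to 176.7 to 321.4 CPM, and in the other 24 to at most 0.2124 CPM. Among old livers at 48, replicate 2 had the lowest level of the 3 libraries in 27 of 40 members, against 39.9% of all tested genes. The summed level of 12 mitosis genes in that library was 22.89 CPM, against 248.5 and 857.9 CPM in the other old libraries at 48. The tissue label was checked with 8 hepatocyte markers, which summed to between 18958 and 30344 CPM in the libraries before and at 48. In bulk liver, fewer cells of a type and less RNA per cell cannot be told apart.

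Before regeneration the members differed widely in level and not detectably by age. Levels per kilobase use the merged length of all annotated exons of a gene, so the order of genes depends in part on that length. On this scale Msh6, the mismatch-binding protein, stood highest in young livers with 11.82 ± 0.2796 CPM per kb (SD, n = 3). Nbn, which anchors the Mre11 nuclease complex at breaks, followed with 11.22 ± 1.296 (SD, n = 3), and its range overlapped that of Msh6. Rad50 stood at 5.423 ± 0.9922 and Atm at 4.209 ± 0.3478 CPM per kb (SD, n = 3 each). At the other end, Exo1, Rad51ap1, Ube2t and Rmi2 were all at or under 0.05387 CPM per kb on average. Old against young before regeneration gave 0 members called, with 0.0595% of all tested genes called; 2 members had an unadjusted p under 0.05, and DESeq2 called 0.

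At 48 in young livers, 32 of 40 members rose and 1 fell against before, while 12.2% of all tested genes were called higher and 9.88% lower. The members were chosen with earlier results of these data known, so their excess over all tested genes, here and below, is not an independent result. The median log2 fold change of the 40 was 2.5, against -0.0106 over all tested genes. The rise was present in each role: 9 of 11 strand-exchange genes, 9 of 12 genes of end trimming, junctions and forks, 8 of 10 Fanconi genes, 4 of 5 checkpoint genes and 2 of 2 in mismatch repair and lesion bypass. In 36 of the 40 the young mean was highest at 48. Fance peaked at 120, Dna2 at 240, and Nbn and Fancc before.

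**Figure D1:**
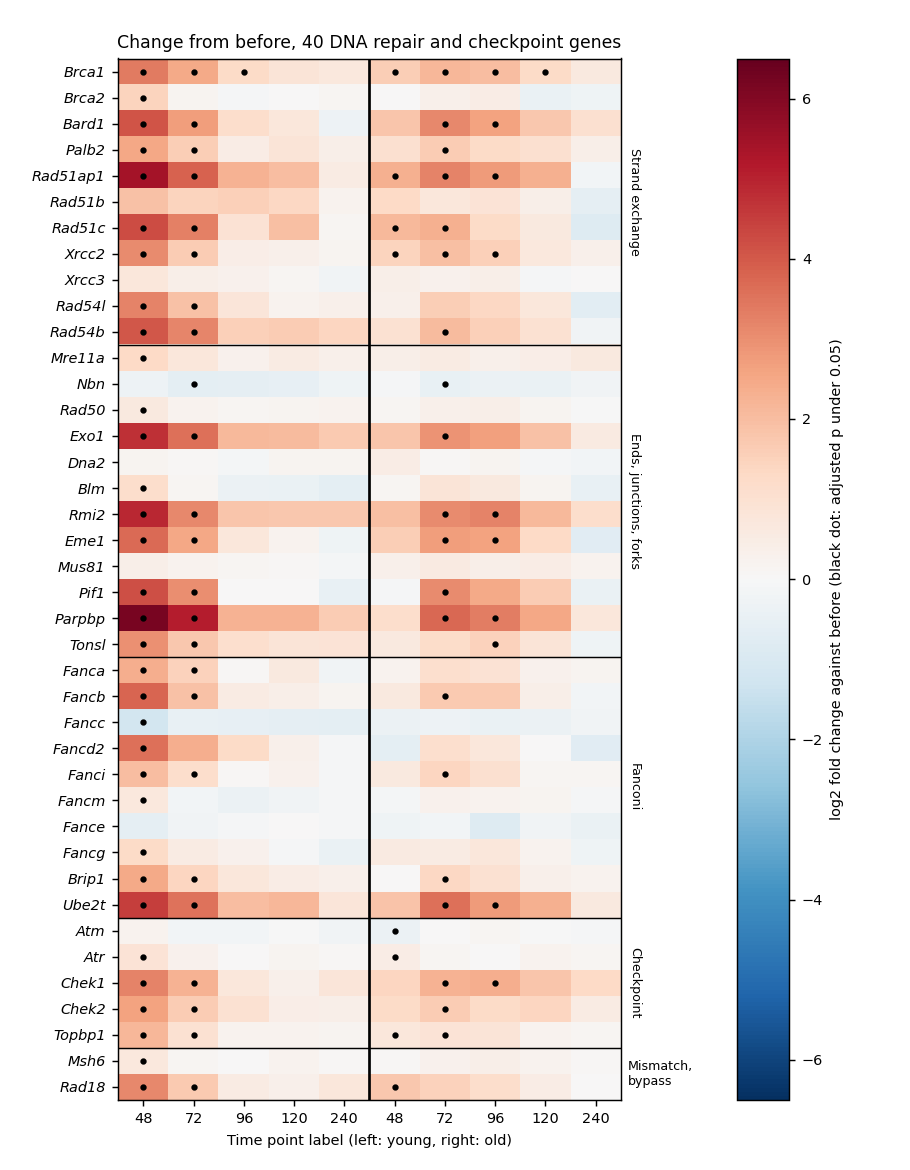
Heat map of the log2 fold change of the 40 members against before, with 5 time points in young livers on the left and the same 5 in old livers on the right; rows are grouped by role and a black dot marks an adjusted p under 0.05. In young livers 33 members carry a dot at 48 and 24 at 72, and in old livers 8 at 48, 20 at 72 and 10 at 96.

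Among the strand-exchange genes, Brca1 (GRCm38 chr11:101488764-101551955, minus strand) encodes the ubiquitin ligase that directs breaks to recombination. It stood at 7.70, 12.7 and 8.72 CPM before and at 98.9, 86.2 and 114.8 CPM at 48 in young livers. The groups were far apart, a log2 fold change of 3.37 ± 0.32 with an adjusted p of 2.04e-07. Brca2, a tumour suppressor that acts at the trimmed single strand, went from 29.8, 32.3 and 41.6 CPM to 104, 95.7 and 86.0 CPM (log2 1.46 ± 0.24). Its rise was the smallest among the 9 that were called in this role. Rad51ap1, which promotes pairing of the strands, had 3 summed counts before and 165 at 48, a ratio of 50.75 per depth with an exact 95% interval of 17.06 to 248.6 that covers counting error only. Its levels were 16.7, 6.47 and 9.36 CPM at 48. Rad54l, a motor protein that acts on the paired duplex, rose from 1.04, 0.995 and 1.70 CPM to 11.4, 11.4 and 13.1 CPM. Bard1 (4.09 ± 0.65), Rad51c (4.23 ± 0.72), Rad54b (4.02 ± 0.58, with 35.9% of its exon bases shared with other annotated genes), Xrcc2 (3.08 ± 0.38) and Palb2 (2.54 ± 0.40) also rose on the log2 scale. Xrcc3 and Rad51b, which act in complexes with Rad51c, were the members of this role that were not called. Xrcc3 read 8.11, 6.96 and 5.08 CPM before and 7.68, 13.7 and 13.3 CPM at 48 (log2 0.76 ± 0.36, adjusted p = 0.13), and its groups overlapped.

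Genes that trim ends, dissolve junctions or guard forks spread more widely. Parpbp (chr10:88091432-88146941, minus strand), which restrains recombination, had the highest fold change of all 40 members: 0.416, 0.497 and 0.242 CPM before, then 37.1, 15.3 and 36.0 CPM (log2 6.16 ± 0.88, adjusted p = 1.02e-05). Pif1 (chr9:65587160-65595967, plus strand), a helicase active at forks and telomeres, went from 1.04, 1.74 and 3.87 CPM to 44.5, 19.9 and 55.7 CPM. In both genes replicate 2 was lowest at 48, and it also held the lowest mitosis sum of the 3 young libraries, 2173 CPM against 4208 and 4606. Exo1, the exonuclease that extends trimmed ends, rose from 0.208, 0 and 0.969 CPM to 8.82, 9.31 and 15.3 CPM. The partner nuclease-helicase Dna2 was not called (log2 0.18 ± 0.21, adjusted p = 0.589). Blm, the helicase that dissolves double junctions, rose 1.15 ± 0.31 on the log2 scale, and its partner Rmi2 rose 4.91 ± 0.96. Eme1, the regulatory subunit of a junction-cutting nuclease, rose 3.71 ± 0.60, whereas its catalytic partner Mus81 did not pass (0.36 ± 0.22, adjusted p = 0.261). The Mre11 complex was split likewise. Mre11a went from 3.33, 4.48 and 3.39 CPM to 9.64, 8.28 and 9.61 CPM (log2 1.30 ± 0.36), and Rad50 rose 0.62 ± 0.18. Nbn read 26.4, 26.6 and 32.2 CPM before and 24.5, 24.3 and 19.0 CPM at 48, with the 48 libraries all lower (log2 -0.33 ± 0.15, adjusted p = 0.128). Whether the partners' changes differed from each other was not tested.

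Fanconi genes divided into risers and 2 core-complex members with other patterns. Ube2t, the ubiquitin-conjugating enzyme of the pathway, had 3 summed counts before and 84 at 48. The ratio was 25.83 per depth, with an exact 95% interval of 8.542 to 127.8 that covers counting error only. Ube2t read 6.7, 3.36 and 7.39 CPM at 48. Its substrate Fancd2 went from 0.416, 0 and 0.969 CPM to 7.03, 5.17 and 5.17 CPM (log2 3.58 ± 0.87), and the partner substrate Fanci rose 2.00 ± 0.35. Fancb, a core-complex subunit, moved from 1.25, 0.746 and 2.66 CPM to 22.7, 16.8 and 25.9 CPM. Brip1, the helicase that binds Brca1, moved from 7.70, 5.22 and 10.2 CPM to 49.8, 30.8 and 46.6 CPM. Fancc, also of the core complex, was the member that fell: 16.4, 24.9 and 19.1 CPM before against 7.52, 9.31 and 9.61 CPM at 48, with no overlap (log2 -1.20 ± 0.33, adjusted p = 0.00877). Of its exon bases, 18.6% are shared with other annotated genes on the other strand, so part of its counts may belong to them. The same limit applies to members that rose: Fanci shares 16%, Rad54l 15.4%, Parpbp 12.1%, Eme1 10.7% and Fanca 10.5% of exon bases in this way. Fance read 11.7, 6.47 and 8.96 CPM before and 6.37, 7.76 and 4.19 CPM at 48 (adjusted p = 0.156).

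The checkpoint genes covered a wide span of change. The effector kinase Chek1 went from 0.208, 0.995 and 2.66 CPM to 12.1, 10.3 and 13.8 CPM (log2 3.24 ± 0.57), and Chek2 from 0.416, 2.49 and 0.969 CPM to 9.31, 5.95 and 7.88 CPM (2.60 ± 0.52). Topbp1, which activates Atr, rose from 13.9, 13.9 and 10.7 CPM to 65.4, 52.8 and 53.7 CPM. Atr, the kinase for stalled forks, rose from 17.3, 23.4 and 24.9 CPM to 41.8, 38.8 and 39.7 CPM, a log2 change of 0.88 ± 0.17. Atm, the kinase for double-strand breaks, read 43.3, 40.04 and 47.2 CPM before and 51.8, 53.0 and 48.0 CPM at 48 (0.23 ± 0.14, adjusted p = 0.246). Msh6 rose from 51.8, 49.99 and 52.3 CPM to 80.4, 88.0 and 83.8 CPM, and the lesion-bypass ligase Rad18 rose 3.11 ± 0.53 on the log2 scale. Msh6, the highest member per kilobase before, thus rose by 0.71 ± 0.16 on the log2 scale. Exo1, Rad51ap1, Ube2t and Rmi2, the lowest per kilobase, each rose by 4.498 or more, though the level before enters both measures. The plot of levels by library shows 6 members with these patterns.

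**Figure D2:**
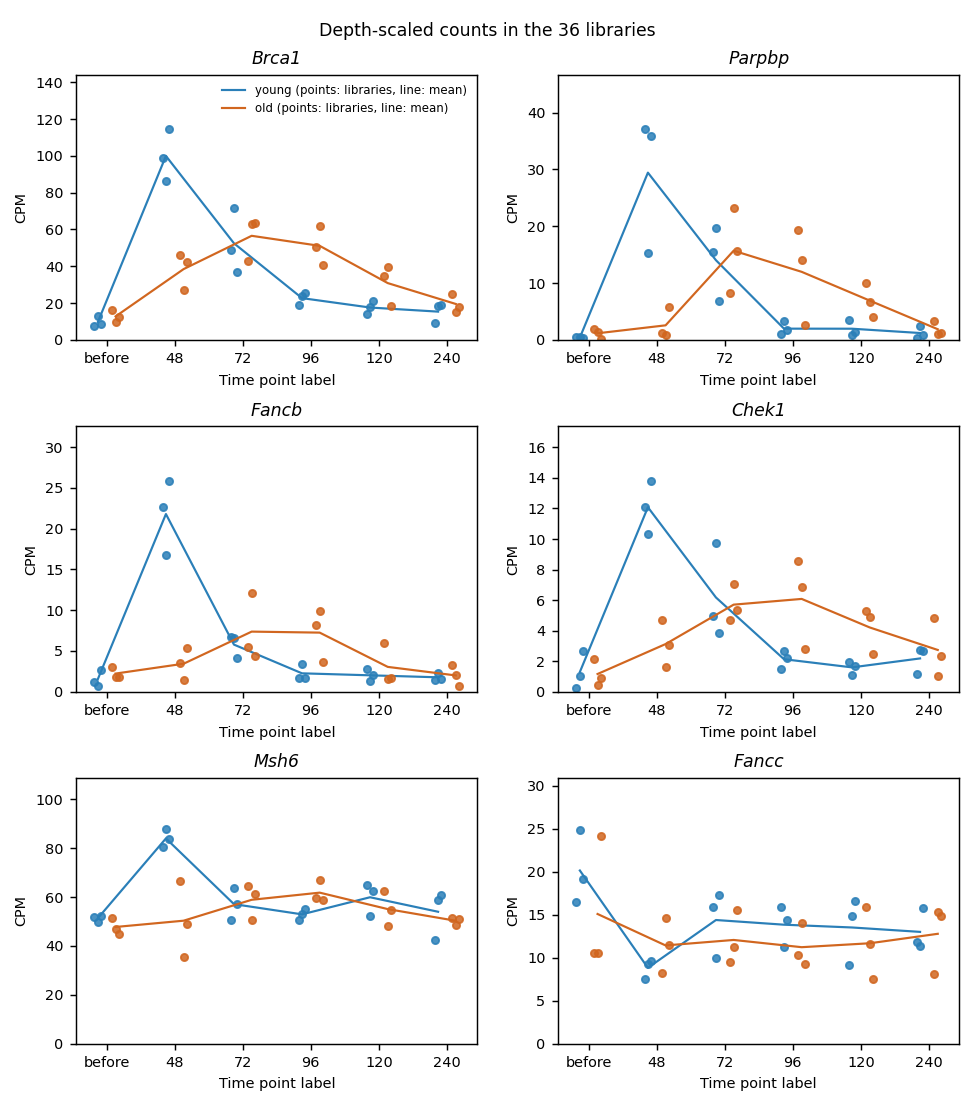
CPM of Brca1, Parpbp, Fancb, Chek1, Msh6 and Fancc in each of the 36 libraries against the time point label; points are libraries, lines join the means of 3, blue is young and orange is old. Young Brca1 reaches 86.2 to 114.8 CPM at 48, where the old libraries read 26.9 to 46.2 CPM, and Fancc runs the other way in young livers.

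By 72, 23 members were still called higher in young livers and 1 lower, against 9.26% and 8.23% of all tested genes. The count rests on single libraries: it was 11 without young before replicate 1, 15 without young before replicate 2, 14 without young 72 replicate 1 and 12 without young 72 replicate 2. Young 72 replicate 3 had the lowest mitosis sum of its group, 605.2 CPM against 1856 and 2474, and read lowest for Brca1, at 36.9 CPM against 48.8 and 71.7. Without that library 24 members were called, as with it. The member called lower was Nbn, at 16.4, 19.2 and 18.3 CPM (log2 -0.66 ± 0.15, adjusted p = 0.00425). Members called at 48 that no longer passed included Brca2, Blm, Atr, Msh6 and Fancd2. At 96 only Brca1 was called (log2 1.22 ± 0.32, adjusted p = 0.0472; 1.44% of all tested genes), and the count was 0 or 2 in 25 of the 36 fits that left out 1 library. No member was called at 120 or 240, where 0.595% and 0.26% of all tested genes were called; 6 and 1 members had an unadjusted p under 0.05, and DESeq2 called 0 at both.

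In old livers the same comparison at 48 called 8 members (20% of the 40): Brca1, Rad51ap1, Rad51c, Xrcc2, Atr, Topbp1 and Rad18 higher and Atm lower. Of all tested genes 12.3% were called higher and 12.1% lower (24.3% in either direction). The members' share called in either direction was thus no higher than that of all tested genes. The median log2 fold change of the 40 was 0.598. Brca1 went from 16.2, 9.61 and 12.3 CPM to 46.2, 26.9 and 42.1 CPM (1.59 ± 0.31, adjusted p = 0.000556), and held in all 45 alternatives. The count fell to 2 without old before replicate 2 or replicate 3, to 4 without old 48 replicate 1, to 5 without old 48 replicate 3, and to 1 in a fit of the 6 libraries compared. Cell type markers moved in the same comparison: of 27 tested, 9 were lower (4 of 8 hepatocyte, 3 of 6 macrophage, 1 of 5 endothelial and 1 of 2 T and B cell markers) and 1 of 6 stellate markers was higher. In young livers at 48, 4 of the 27 were lower (2 hepatocyte and 2 endothelial) and 1 macrophage marker was higher. Their part in the members' changes was not tested. Rad18 had a log2 change of 1.74 ± 0.51, which was 0.645 without old 48 replicate 2 and no longer called; the call was also lost without old before replicate 2 or 3. It read 3.78, 19.9 and 4.91 CPM at 48, and here replicate 2, low for most members, was the highest.

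At 72, 19 members rose in old livers and 1 fell, against 6.71% and 5.92% of all tested genes. The median log2 fold change was 1.25. Parpbp went from 1.88, 1.34 and 0.228 CPM before to 1.11, 0.810 and 5.73 CPM at 48 and 8.21, 23.2 and 15.7 CPM at 72 (log2 3.74 ± 0.76 at 72). Chek1 stood at 4.72, 7.02 and 5.36 CPM at 72, against 2.11, 0.447 and 0.913 CPM before. Ube2t rose 3.57 ± 0.72, Bard1 3.12 ± 0.66 and Exo1 2.94 ± 0.92 on the log2 scale. Nbn fell here too, from 21.6, 23.5 and 24.6 CPM to 20.3, 16.9 and 13.02 CPM (log2 -0.47 ± 0.16, adjusted p = 0.0434), and 22 of 45 alternatives lost the call, with adjusted p-values from 0.01745 to 0.2842 in edgeR or DESeq2. The count was 9 without old before replicate 2, 7 without old before replicate 3 and 13 without old 72 replicate 3. At 96, 10 members were called higher, against 3.77% of all tested genes (6.85% in either direction): Brca1, Bard1, Rad51ap1, Xrcc2, Rmi2, Eme1, Parpbp, Tonsl, Ube2t and Chek1. That count was 2 without old before replicate 3 or old 96 replicate 2, 3 without old before replicate 2 or old 96 replicate 1, and 16 without old 48 replicate 2 or old 96 replicate 3. Old 96 replicate 3 had a mitosis sum of 380 CPM, against 1636 and 1724 in the others, and 2.53 CPM of Parpbp against 19.3 and 14.1. Brca1 was the member called at 120 (log2 1.27 ± 0.31, adjusted p = 0.0202; 4.05% of all tested genes). That count was 0 without old before replicate 2 or 3 or old 120 replicate 1 or 2, and 2 to 5 without old before replicate 1, old 48 replicate 2 or 3, or old 96 replicate 3. At 240 edgeR and DESeq2 called 0 members and 0 had an unadjusted p under 0.05 (0.141% of all tested genes called). The old mean was highest at 72 in 23 members, at 96 in 8, at 48 in 5, before in 3 and at 240 in 1.

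Set directly against young livers at 48, old livers had lower levels of 27 members and higher levels of 0, while 6.88% of all tested genes were called lower and 4.5% higher. In 30 of the 40 members all 3 old libraries lay below all 3 young ones, a pattern seen in 12.8% of tested genes; the reverse was seen in 0 members and 8.8% of tested genes. The lower members were 8 strand-exchange genes, 7 of ends, junctions and forks, 7 Fanconi genes, 4 checkpoint genes and Msh6. The 27 calls draw on the spread of all 36 libraries. A fit of the 6 libraries at 48 alone called 0 of the 40, and 1 of all tested genes, while 28 of the 40 had an unadjusted p under 0.05. The share of all tested genes under that p was not counted in this fit, so the 28 have no background beside them. Without any 1 library the count ran from 20, reached without young 48 replicate 1 and also without old 48 replicate 2, to 28, and without the 12 libraries with Y-linked transcripts it was 22.

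Pif1 showed the largest difference: 44.5, 19.9 and 55.7 CPM in young against 0.667, 0 and 6.14 CPM in old livers, with no overlap (log2 -4.11 ± 0.76, adjusted p = 0.000924). Parpbp differed by -3.51 ± 0.67, Fancb by -2.66 ± 0.49 and Brip1 by -2.21 ± 0.40 on the log2 scale. Brip1 read 14.4, 2.84 and 10.4 CPM in old livers, under its young range of 30.8 to 49.8 CPM. Fancd2 read 1.11, 0 and 1.84 CPM, Exo1 3.11, 0.203 and 3.27 CPM, and Blm 7.11, 9.12 and 8.18 CPM in old livers, each below all 3 young libraries. Rad54l read 2.67, 1.22 and 3.07 CPM and Ube2t 1.78, 0 and 1.84 CPM. Among checkpoint genes, Chek1 stood at 4.67, 1.62 and 3.07 CPM, Chek2 at 3.78, 0.203 and 4.70 CPM and Topbp1 at 30.2, 15.8 and 27.8 CPM. All of these were called lower, with adjusted p-values in edgeR's test between 0.000773 and 0.0417. Atm differed least in size among the checkpoint genes called and had the smallest p of all members: 28.7, 23.3 and 28.0 CPM in old against 51.8, 53.0 and 48.0 CPM in young livers (log2 -0.93 ± 0.14, adjusted p = 0.000192). Msh6 read 66.5, 35.6 and 48.9 CPM in old livers, below the young range of 80.4 to 88.0 CPM. Members that did not pass were Rad51b, Rad51c, Xrcc3, Mre11a, Nbn, Rad50, Dna2, Mus81, Fancc, Fance, Fancg, Atr and Rad18. Atr had 32.5, 38.9 and 26.8 CPM in old livers, with 1 old library inside the young range of 38.8 to 41.8 CPM. Mre11a had 3.78, 5.27 and 7.77 CPM, all below the young libraries (adjusted p = 0.197).

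**Figure D3:**
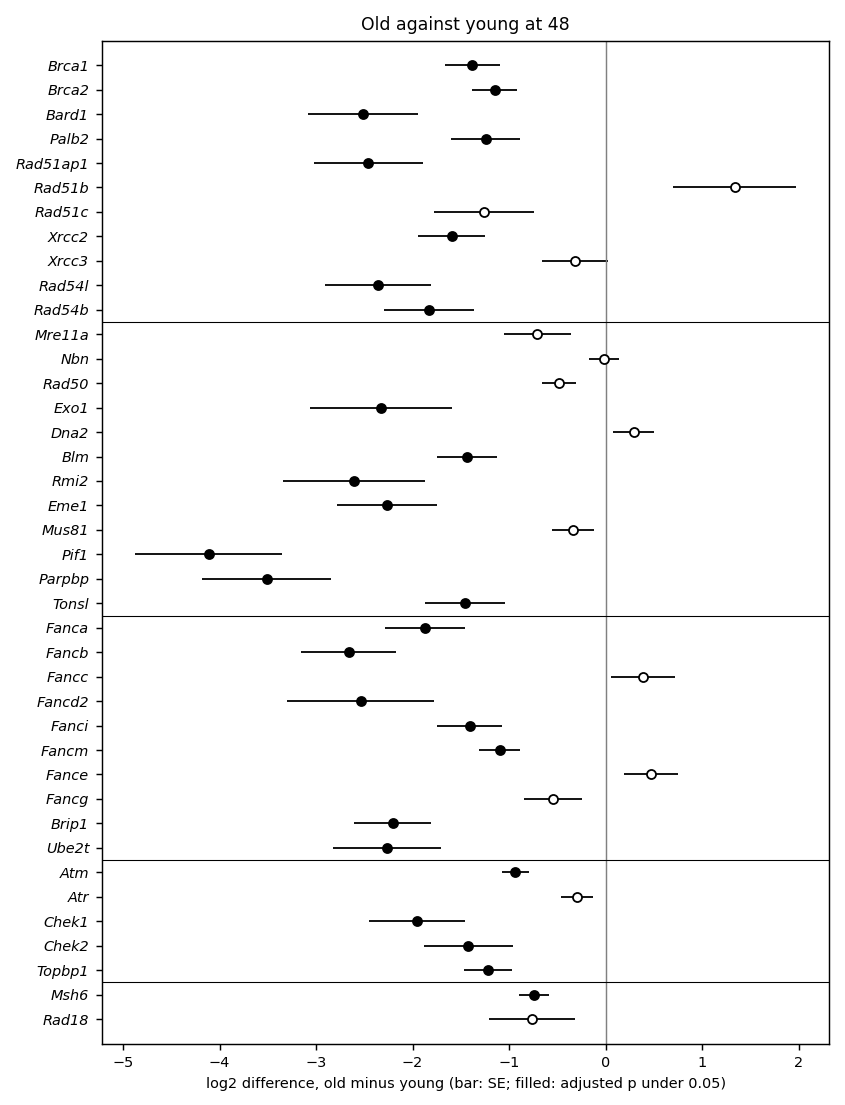
Log2 difference of each of the 40 members at 48, old minus young, with bars of 1 standard error; filled points passed an adjusted p under 0.05 in edgeR's quasi-likelihood test and lines separate the roles. All 27 filled points lie left of 0, from Atm, Msh6 and Fancm nearest to 0 to Pif1 at -4.11.

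Other markers moved with this difference. All 12 mitosis genes were called lower in old livers at 48, with a median log2 difference of -3.33, and 14 of 16 replication genes were called lower with a median of -1.69. The mitosis sum was 2173 to 4606 CPM in young and 22.89 to 857.9 CPM in old livers at 48. Macrophage markers summed to 230.2 to 330.7 CPM in young and 119.5 to 372.9 CPM in old livers, endothelial markers to 166.3 to 250.5 and 201.7 to 285.6 CPM, and stellate cell markers to 209.7 to 281.2 and 272.3 to 435.8 CPM. T and B cell markers were at 3.203 to 5.557 CPM in young livers, with Cd3d at 0 in all 3, and at 0.4446 to 6.954 CPM in old livers. Of the 8 hepatocyte, 6 macrophage, 5 endothelial, 6 stellate and 2 tested T and B cell markers, 0 of 27 were called between the ages at 48 by edgeR, against 11.4% of all tested genes. An unadjusted p under 0.05 was found for 7 of the 27, 4 of them hepatocyte markers, and for 25.2% of all tested genes. The part of cell cycle entry or cell makeup in the members' difference was not tested.

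At 72 no age difference was detected: 0 members and 0% of all tested genes were called between them, 0 members had an unadjusted p under 0.05, and DESeq2 called 0. Brca1 read 48.8, 71.7 and 36.9 CPM in young and 42.9, 63.0 and 63.8 CPM in old livers. At 96 edgeR called 0 members (0.402% of all tested genes), but 17 had an unadjusted p under 0.05, against 13.4% of all tested genes, and DESeq2 called 4. EdgeR called 3 without old 96 replicate 3, 2 without old 48 replicate 2 and 1 without old 120 replicate 3. The median log2 difference of the 40 was 1.04, toward old. In 16 members all 3 old libraries lay above all 3 young ones, against 9.94% of tested genes, and in 0 members below. Brca1 stood at 18.8, 23.8 and 25.4 CPM in young and 50.7, 62.0 and 40.5 CPM in old livers, and Topbp1 at 12.91, 19.0 and 12.99 CPM against 27.9, 30.0 and 19.7 CPM. At 120 and 240 edgeR and DESeq2 called 0 members, with 0.0819% and 0.0149% of all tested genes called by edgeR. An unadjusted p under 0.05 in edgeR's test was found for 5 of the 40 members at 120, against 10% of all tested genes. At 240 it was found for 0 members and for 672 of the 13436 tested genes. All 3 old libraries lay above all 3 young ones at 120 in 8 members, against 7.81% of tested genes, and below them in 0, against 8.63%.

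Whether the course over time differed between the ages was tested in 1 test per gene over all 5 later time points. It called 14 members, against 2.91% of all tested genes. The smallest adjusted p-values belonged to Parpbp (0.00505), Brca1 (0.0062) and Pif1 (0.00656). The step from 48 to 72, a part of that course, was also tested on its own. In young livers 5 members fell in that step, namely Brca2, Xrcc2, Fancb, Fancm and Topbp1, against 0.871% of all tested genes called lower and 1.23% called in either direction. In old livers 2 members rose, Pif1 (log2 3.16 ± 0.76) and Parpbp (2.59 ± 0.67), against 1.58% of all tested genes called higher, 1.35% lower and 2.92% in either direction. The difference between the steps was called in 11 members, all toward a higher step in old livers, against 1.94% of all tested genes (2.38% in either direction). Brca2 gave the smallest p: it went from 104, 95.7 and 86.0 CPM to 37.9, 49.6 and 29.3 CPM in young livers and from 56.7, 29.2 and 43.2 CPM to 63.2, 55.2 and 43.5 CPM in old livers. The steps differed by 1.62 ± 0.33 on the log2 scale (adjusted p = 0.0129). Pif1 differed by 4.33 ± 0.99, Parpbp by 3.66 ± 0.88 and Fancb by 2.99 ± 0.69. These calls rest on few libraries: the step difference was called in 1 member without young 48 replicate 1, young 72 replicate 3 or old 72 replicate 2, in 2 without young 48 replicate 3 or old 48 replicate 2, in 7 without young 72 replicate 1 or old 72 replicate 3, and in 19 without old 48 replicate 3. The test over all time points called 5 without young 48 replicate 1, 6 without young 48 replicate 3, 7 without old 48 replicate 2, 8 without old 96 replicate 2 and 9 without young 96 replicate 1. The young step gave 0 without young 48 replicate 1 or young 72 replicate 1, 1 without young 48 replicate 3 or young 72 replicate 3, and 9 without old 48 replicate 2. The old step gave 0 without old 48 replicate 2 or old 72 replicate 2 or 3, 1 without old 48 replicate 1, and 4 without old 48 replicate 3 or old 72 replicate 1. A fit of only the 4 groups concerned called 0 in the step difference, with 26 members at an unadjusted p under 0.05. The share of all tested genes under that p was not counted there either.

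**Figure D4:**
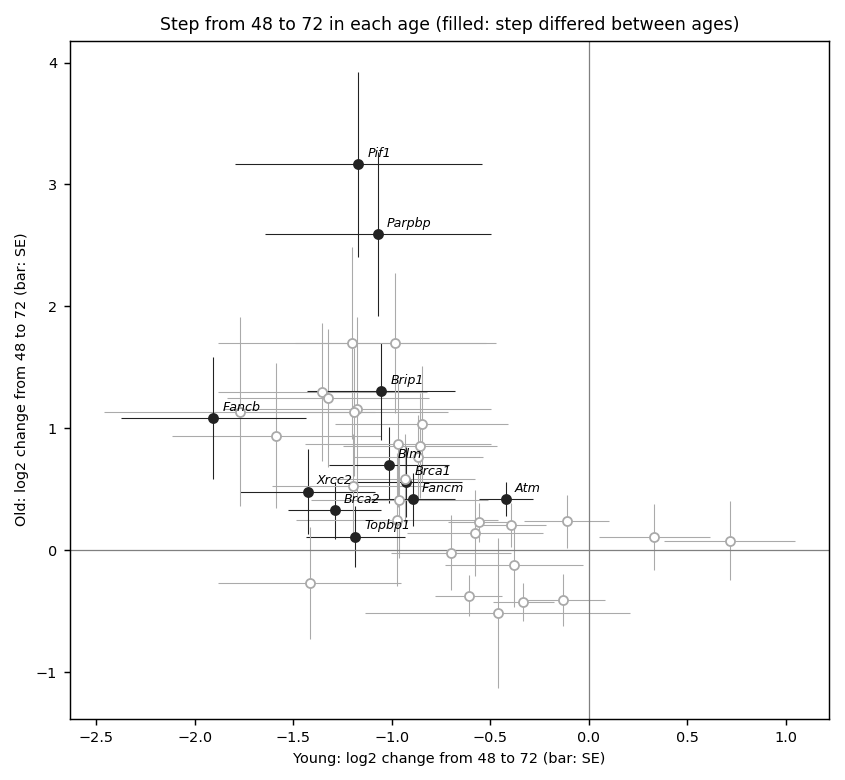
Log2 change from 48 to 72 of each of the 40 members, young livers on the horizontal axis and old livers on the vertical axis, with bars of 1 standard error; filled points are the 11 members whose step differed between the ages at an adjusted p under 0.05. All 11 lie left of 0 and above 0, with Pif1 highest at 3.16.

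A comparison of old with young livers averaged over the 6 time points was added after the data had been seen. It called 2 members (5% of the 40), Rad51b higher and Atm lower in old livers. Of all tested genes 3.45% were called higher and 2.69% lower (6.13% together). The members' share was thus no higher than that of all tested genes. Both calls held in all 44 alternatives. Rad51b (chr12:79297282-79814690, plus strand) has 3757 exon bases in a span of 517409 and encodes a partner of Rad51c and Xrcc2 in recombination; it is described because of this call. It read 2.91, 2.24 and 3.87 CPM in young and 10.6, 10.1 and 15.5 CPM in old livers before, which do not overlap. At 48 it read 18.3, 11.6 and 3.94 CPM in young and 13.1, 34.6 and 39.7 CPM in old livers, and at 72 it read 7.46, 8.26 and 9.42 against 41.7, 13.3 and 6.32 CPM, with overlap at both. The averaged difference was 1.36 ± 0.28 on the log2 scale toward old (adjusted p = 0.00381). No single time point was called by edgeR, with adjusted p-values of 0.548 before and 0.184 at 48.

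The library with Y-linked transcripts had the lowest Rad51b of its group in 9 of the 12 groups, which was so in at least 9 groups for 4.06% of tested genes. Without those 12 libraries the averaged difference was 1.501. Atm, on the other side, was lower in old livers by 0.32 ± 0.06 on the log2 scale (log2 difference -0.32, adjusted p = 0.000712). Its distance was widest at 48. Before, young livers read 43.3, 40.04 and 47.2 CPM and old livers 38.0, 29.9 and 36.5 CPM, and at 96 they read 33.2, 43.1 and 41.2 against 36.1, 35.1 and 41.6 CPM. In old livers Atm fell from before to 48 (log2 -0.39 ± 0.14, adjusted p = 0.043), and 18 of 45 alternatives lost that call. Its step from 48 to 72 differed between the ages by 0.84 ± 0.19 on the log2 scale (adjusted p = 0.0224).

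**Figure D5:**
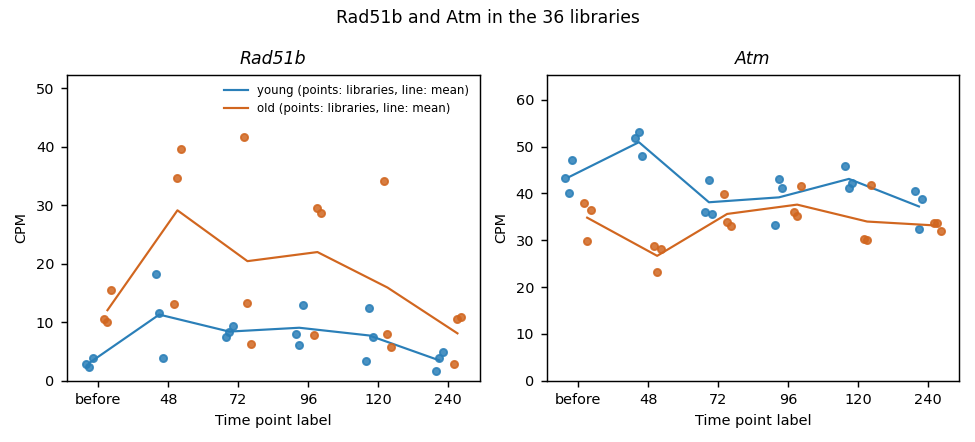
CPM of Rad51b (left) and Atm (right) in each of the 36 libraries against the time point label; points are libraries, lines join the means of 3, blue is young and orange is old. Old Rad51b libraries range from 2.86 to 41.7 CPM, while Atm separates the ages at 48, with 23.3 to 28.7 CPM in old and 48.0 to 53.0 CPM in young livers.

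Other genes of these pathways, from lists that do not overlap the 40, are given beside the members' median of 2.5. Members and lists were both chosen with earlier results of these data known, so their medians are not an independent comparison. At 48 in young livers, 9 of 24 other recombination and Fanconi genes rose (median log2 0.481) and 9 of 13 other checkpoint genes rose (0.692), with 0 lower in either. Base excision repair, which replaces damaged bases, had 6 of 15 higher (0.383), and end joining, which ligates breaks without a template, had 2 of 9 higher (0.448). Nucleotide excision repair, which cuts out bulky lesions, had 0 of 14 higher and 2 lower (0.0522), and other mismatch repair genes had 1 of 6 higher (0.369). For genes of cell division, 16 of 16 replication genes (3.27) and 12 of 12 mitosis genes (6.07) rose at 48 in young livers, both with medians above that of the members. The background is 12.2% of tested genes higher and 9.88% lower. In old against young livers at 48, 8 of 24, 6 of 13, 3 of 15 and 2 of 6 genes were lower among other recombination and Fanconi, other checkpoint, base excision and other mismatch genes, against 6.88% of all tested genes. End joining had 0 of 9 called by edgeR in that comparison, with 4 at an unadjusted p under 0.05, against 25.2% of all tested genes. Nucleotide excision had 1 of 14 higher, against 4.5% of all tested genes, and 0 lower.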

How the data were processed

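The deposited values are whole-number counts per gene symbol, 1 table per library, not normalized. Per the submitters' processing notes, the authors' tools included Trimmomatic 0.39, STAR 2.7.5b, SAMtools 1.10, Picard 2.20.8 and featureCounts, with the GRCm38 (mm10) build. The gene annotation and the use of strand in counting are not given in the sources used here, so counts of members that share exon bases with another gene, 19 of 40 in GENCODE vM21, are uncertain. The libraries hold unspliced as well as mature RNA. Per the labels' protocols, ERCC spike-in mixes differed between the ages; no ERCC values were used here, and total RNA per cell cannot be seen.

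Counts were tested in R 4.3.3 with edgeR 4.0.16: TMM scaling, filterByExpr on the 12 groups (13436 of 21955 genes kept), and 1 quasi-likelihood fit of all 36 libraries with a mean for each group (common biological coefficient of variation 24.7%). Benjamini-Hochberg adjustment ran over all tested genes of a comparison. CPM uses TMM-scaled totals of the tested genes. Standard errors are the log2 fold change divided by the square root of F. The members and lists were chosen with earlier results of these data known. Values per library are given for 16 members whatever their result, for the highest and lowest fold change of each role at 48 in young livers, for the smallest p-values of the interaction and of the step difference, and for at most 5 members called between the ages at a time point. Others named with values were chosen after their values were seen. Alternatives were DESeq2 1.42.0, other scalings and filters, robust estimation of the spread (added after seeing the data), a replicate block, fits of only the groups compared, leaving out the 12 libraries with Y-linked transcripts, and leaving out each library in turn.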

Additional observations from a re-analysis of the deposited data

Results flagged for a closer look

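The 14 members whose course over the 6 time points differed between young and old livers were singled out by the age by time test of edgeR. Their adjusted p-values were 0.00505 for Parpbp, 0.0062 for Brca1, 0.00656 for Pif1, 0.00694 for Brca2, 0.00828 for Fancb and 0.0182 for Topbp1. Xrcc2 had 0.0233, Brip1 0.0258, Eme1 0.0286, Fancm 0.0288 and Chek1 0.0388. Bard1 had 0.0425, Atm 0.0443 and Fanca 0.0457.

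In 11 members the step from 48 to 72 differed between the ages, with a higher step in old livers in each. Adjusted p-values in edgeR's test were 0.0129 for Brca2, 0.0209 for Pif1, 0.022 for Fancb, 0.0224 for Fancm, 0.0224 for Brip1 and 0.0224 for Atm. Parpbp had 0.0269, Blm 0.032, Xrcc2 0.0324, Brca1 0.0439 and Topbp1 0.0458. Blm stands in the second group and not in the first.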

How the results depend on the processing

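Pairs of a member and a comparison, 170 in all, were recomputed under the alternatives. They were the pairs called in the main fit and a few uncalled pairs picked by hand. Of their values, 6982 kept their direction and side of the threshold and 630 kept their direction but no longer passed. Another 7 newly passed and 0 reversed. Few of these pairs could newly pass, and reversal was unlikely for pairs chosen because they were called. Counts of members called are given next, with the main count in brackets at its first mention. This paragraph lists only counts that moved by more than 1.5 times, or to or from 0. Smaller moves are left out: fitting only the groups compared gave 18 for young 72 (main 24) and 16 for old 72 (main 20). Fitting only the groups compared gave 2 for young 96 (main 1), 1 for old 48 (8), 1 for old 96 (10), 0 for old 120 (1), 0 for old against young at 48 (27), 1 for old against young at 96 (0), and 0 for the young step (5), the old step (2) and the step difference (11). These fits hold fewer libraries. Leaving out the 12 libraries with Y-linked transcripts gave 0 for young 96, 5 for old 48, 4 for old 96, 4 for old 120, 5 for the interaction (14), 1 for the young step, 0 for the old step and 1 for the step difference. DESeq2 gave 2 for young 96, 3 for old 120, 4 for old against young at 96, 22 for the interaction, 8 for the young step and 17 for the step difference. Total-count scaling gave 1 for the young step and 7 for the step difference, and no filter or a mean CPM of at least 1 gave 0 for young 96; the cause was not tested. Under total-count scaling the median log2 fold change of all tested genes against before was 0.211 at young 72, 0.127 at young 96 and 0.111 at old 72, against 0.0145, 0.0147 and -0.00608 with TMM.

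Leaving out 1 library gave ranges of 30 to 34 for young 48, 11 to 25 for young 72, 0 to 2 for young 96, 2 to 10 for old 48, 7 to 21 for old 72, 2 to 16 for old 96 and 0 to 5 for old 120. The ranges were 20 to 28 for old against young at 48, 0 to 3 at 96, 5 to 17 for the interaction, 0 to 9 for the young step, 0 to 4 for the old step, 1 to 19 for the step difference and 2 to 2 for the averaged comparison. Replicate numbers recur in every group, but same-numbered libraries of an age deviated together with a mean r of only 0.0503 (range -0.359 to 0.561), so the numbers were not taken to pair the samples. With the replicate block the counts were 13 for old 96, 10 for the interaction, 6 for the young step and 12 for the step difference, and the main count elsewhere. The interaction and the averaged comparison use all groups and have no fit of fewer groups. Low counts limit members such as Rad51ap1, Rmi2, Ube2t and Rad51c, with 3 summed counts before in young livers.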
